A study of Mus musculus with 4 samples.

Results

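Glycolysis and hypoxia response genes were followed as a set of 39 genes in 4 clonal derivatives of c17.2, an immortalised line of mouse neural stem cells. The members were chosen as every probe set annotated with the symbol of 1 of these genes and no other gene. Of the 39, 34 were found, among 8237 genes that the array names in this way, and they took 51 of its 12469 rows. The set holds 16 glycolytic enzymes, 4 transporters of glucose and lactate, 4 regulators of glycolysis and of pyruvate entry into mitochondria, 6 genes of the HIF pathway itself and 9 other targets of hypoxia. Clone 42 and clone 48 carried a stably transfected Nurr1 (the nuclear receptor encoded by Nr4a2), whereas puroB and puroD carried an empty puromycin resistance vector. All were grown under proliferating conditions, and clone 42 had been matched with puroB, and clone 48 with puroD, for similar rates of proliferation. Each line is 1 clone measured on 1 array, so the 2 clones of a group are its only replicates and the number of arrays limits the precision. Nothing in the labels says that the cells were deprived of oxygen.

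Glycolysis turns glucose into pyruvate in the cytosol, and lactate dehydrogenase turns pyruvate into lactate when it does not enter the mitochondria. Hypoxia-inducible factor (HIF) is a pair of proteins, an oxygen-regulated alpha chain (Hif1a or Epas1) and a constant partner (Arnt). With oxygen present, prolyl hydroxylases of the Egln family mark the alpha chain, the von Hippel-Lindau protein Vhl binds it and it is degraded, so that HIF is regulated mostly as a protein and its mRNA need not change. When it is stable, HIF raises the transcription of many glycolytic enzymes together with genes for vessel growth, mitophagy and collagen folding. Proliferating neural progenitors are known for a high rate of glycolysis.

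Of the 39 genes, 25 had a probe set bright enough to be tested, over the median of all signals on at least 2 of the 4 arrays. A further 8 (Pfkp, Aldoc, Slc2a3, Epas1, Arnt, Vhl, Adm and Mif) had probe sets below that filter. Gapdh was represented alone only by array controls, the only probe set of Bnip3l is shared with Bnip3l-ps, and Gpi1, Eno1, Slc16a3 and Egln3 had no probe set annotated to them here and were not analysed. Of the tested members, Vegfa passed the filter only through the control clones, so its difference is partly fixed by the filter. The transfected gene Nr4a2 was not higher where the labels put it, with signals of 320.1 for clone 42 and 206.4 for clone 48, against 485 for puroB and 254.2 for puroD at the brighter probe set, and both clones were below their matched controls at the other too. No source used here says whether these probes lie in the transfected sequence, and the signals may be those of the cells' own gene alone. The clones are therefore called Nurr1-labelled, and every direction is that of the labels. Among the markers of neural stem and progenitor cells, Nes (nestin) was bright on all arrays (3029.8 to 3719.8), whereas Pax6 and Prom1 stayed at or below 61. Of the 6 tested markers of this list 0 passed the test and 5 (Fabp7, Hes1, Notch1, Notch2 and Id2) were lower in both Nurr1-labelled clones than in their matched controls, with a median log2 difference of -0.52. Among the markers of this list below the filter, Vim and Prom1 were higher in both pairs. The log2 differences, clone 42 minus puroB and then clone 48 minus puroD, were 1.07 and 0.092 for Vim and 0.15 and 0.19 for Prom1. Msi1 had 0.36 and -1.18, and Pax6 had -0.57 and 0. Fabp7, a radial glial lipid-binding protein, gave 564.5 for clone 42 and 157.3 for clone 48, against 1292.5 for puroB and 1539 for puroD (limma adjusted p = 0.0503). Microglial markers summed to between 597 and 953 on the 4 arrays and the 8 fibroblast markers to 11422 for clone 42 and 7562 for clone 48, against 3919 for puroB and 4861 for puroD. Of the 5 fibroblast markers tested, 2 (Col3a1 and Snai2) were higher in both pairs, Twist1 was lower in both, and Col1a1 and Col1a2 were higher in clone 42 than in puroB and lower in clone 48 than in puroD. The 9 neuron markers summed to 6948 for clone 42 and 5511 for clone 48, against 3438 for puroB and 3401 for puroD. Most of each sum was Tubb3, with 5688 for clone 42 and 4632.6 for clone 48, against 2703.2 for puroB and 2703.6 for puroD. The Tubb3 probe set carries a suffix with which the manufacturer marks probes that can also match related transcripts. Of the 4 neuron markers tested, 3 (Tubb3, Nefl and Nefm) were higher in both pairs and Stmn2 had differences of opposite sign. Below the filter, Map2 gave 45.8 for clone 42 and 4.2 for clone 48, against 198.1 for puroB and 120.3 for puroD. Dcx and Gap43, also below it, were dim and lower in both pairs. Over all tested probe sets 29.7% were lower and 21.7% higher in both pairs. The part of these cell type markers in the values below was not tested.

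No member passed the test between Nurr1-labelled and control clones, which was made in limma over 6419 probe sets with the matched pair as a block and Benjamini-Hochberg adjustment. The share that passed among all tested probe sets was 0.109%. There were 5 members at an unadjusted p under 0.05 (Pdk1, Vegfa, Pfkl, Pfkm and P4ha1), all lower in the Nurr1-labelled clones, against 7.38% of all tested probe sets in either direction and 5.06% with a lower value. In 15 of the 25 tested members the Nurr1-labelled clone was lower in both matched pairs and in 1, Ndrg1, it was higher in both. The same held for 29.7% and 21.7% of all tested probe sets. At the brightest tested probe set of each gene, both Nurr1-labelled clones lay below both control clones in 14 of the 25, as for 17.9% of all tested probe sets. In 0 they lay above both, as for 12.8%, though they did so at the dimmer tested probe set of Aldoa. Vegfa, which passed the filter only through the control clones, is counted among the 5, the 15 and the 14.

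**Figure D1:**
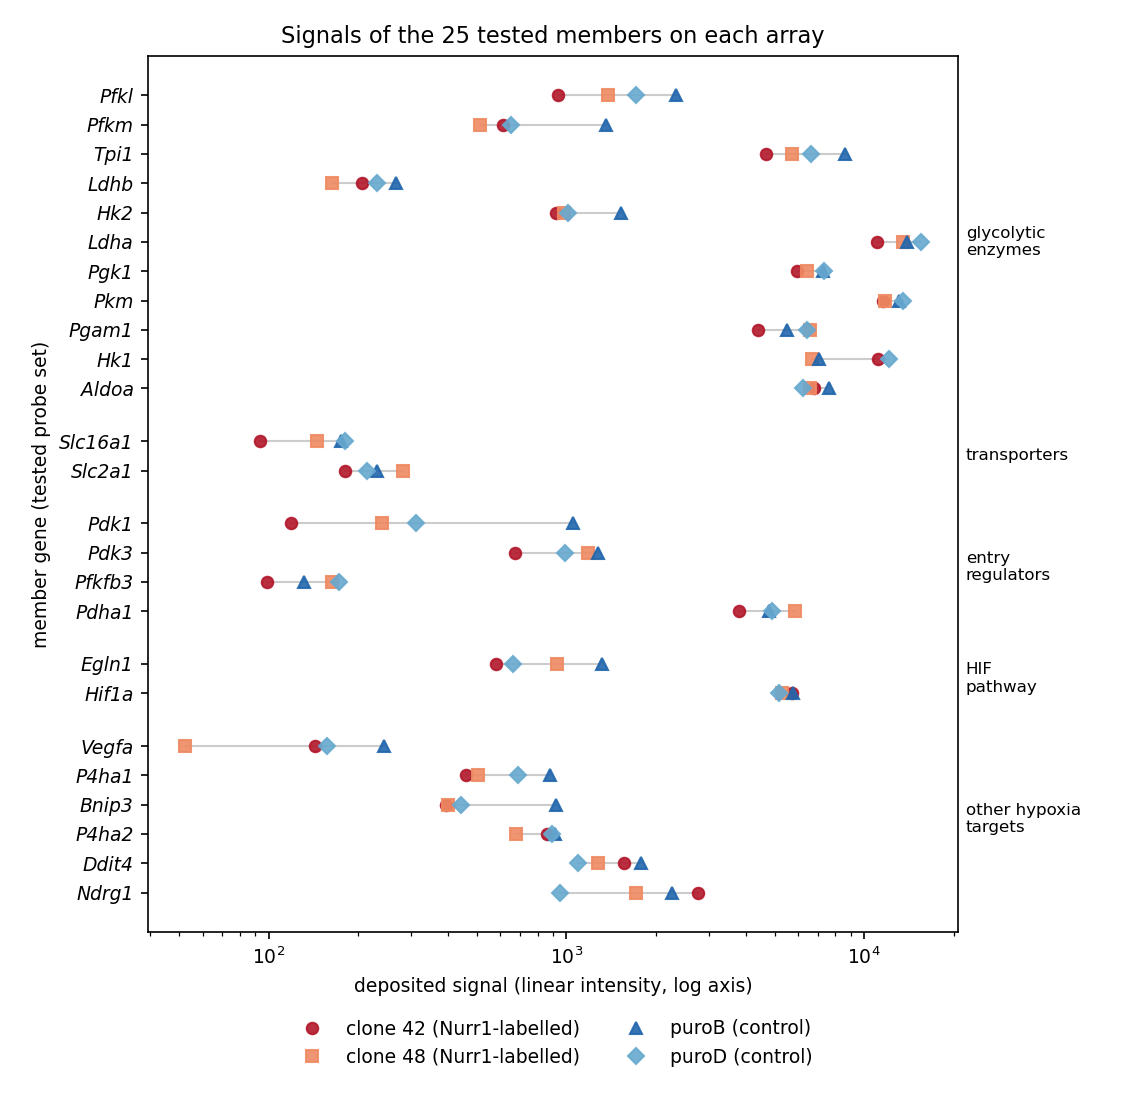
Deposited signals (log axis) of the 25 tested members, 1 row per gene in 5 lists, with clone 42 and clone 48 (Nurr1-labelled) and puroB and puroD (controls) as separate points. Pdk1 spans the widest range of the 25, between 119.3 in clone 42 and 1050.5 in puroB, while the 4 points of Hif1a nearly coincide.

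The member with the largest difference was Pdk1, the kinase that phosphorylates pyruvate dehydrogenase and so keeps pyruvate out of the mitochondria. Its signal was 119.3 on the clone 42 array and 240.1 on that of clone 48, against 1050.5 for puroB and 313.1 for puroD. It was lowest in clone 42, puroB stood far above the others, and the groups did not overlap. Pdk1 was 8.81-fold lower in clone 42 than in puroB and 1.30-fold lower in clone 48 than in puroD. The mean log2 difference was -1.76 ± 0.47 (SE, n = 2 clones per group; 95% interval -2.77 to -0.75; limma adjusted p = 0.187, unadjusted 0.00222). The control clones themselves differed 3.36-fold, in puroB over puroD, and without puroB the difference was -0.89 on the log2 scale. Log2 differences given in pairs are those of clone 42 minus puroB and then of clone 48 minus puroD. Pdk3, another kinase of the same family, had a log2 difference of -0.93 against puroB in clone 42 and of 0.26 against puroD in clone 48. Its target Pdha1, the catalytic alpha subunit of pyruvate dehydrogenase, had -0.33 and 0.26. Pfkfb3, which makes the sugar phosphate that activates phosphofructokinase, had -0.41 and -0.07 with a dim probe set (99 for clone 42 and 163.3 for clone 48, against 131.8 for puroB and 171.7 for puroD). All 4 genes of this list were lower in clone 42 than in puroB, with a median log2 difference of -0.67, and 2 of 4 were lower in clone 48 than in puroD, with a median of 0.092. Over all tested probe sets the medians were -0.060 and -0.035.

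Promoters are shown for the 4 members with the largest mean differences of 1 direction in both pairs, since HIF is known to bind a short core sequence in such genes. Each is 300 bases long, from 250 bases before to 50 bases after the first transcription start that RefSeq lists for the gene in GRCm38.p6, and is written 5′ to 3′ on the gene's strand. Capitals mark the core, ACGTG or GCGTG, searched on both strands. The windows lie at chr2:71872974-71873273 (plus strand) for Pdk1, chr17:46032328-46032627 (minus strand) for Vegfa, chr10:78009758-78010057 (minus strand) for Pfkl and chr15:98092339-98092638 (plus strand) for Pfkm.
Pdk1: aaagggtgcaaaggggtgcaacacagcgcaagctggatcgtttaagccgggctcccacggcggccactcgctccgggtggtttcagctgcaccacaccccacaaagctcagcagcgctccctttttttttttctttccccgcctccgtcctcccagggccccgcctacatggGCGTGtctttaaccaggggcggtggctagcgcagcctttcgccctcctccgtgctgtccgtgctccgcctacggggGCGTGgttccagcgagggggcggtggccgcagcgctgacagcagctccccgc
Vegfa: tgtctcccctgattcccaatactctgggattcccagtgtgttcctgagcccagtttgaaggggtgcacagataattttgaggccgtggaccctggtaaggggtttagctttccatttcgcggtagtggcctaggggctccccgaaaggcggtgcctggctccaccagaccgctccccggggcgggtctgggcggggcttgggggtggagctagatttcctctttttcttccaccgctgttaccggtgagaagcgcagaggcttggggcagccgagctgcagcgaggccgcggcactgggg
Pfkl: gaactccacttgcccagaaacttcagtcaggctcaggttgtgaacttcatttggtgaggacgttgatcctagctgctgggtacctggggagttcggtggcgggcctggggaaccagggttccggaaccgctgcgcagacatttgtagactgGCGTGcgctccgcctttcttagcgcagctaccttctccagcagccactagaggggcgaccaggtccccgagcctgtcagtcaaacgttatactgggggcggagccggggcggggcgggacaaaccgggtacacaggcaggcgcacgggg
Pfkm: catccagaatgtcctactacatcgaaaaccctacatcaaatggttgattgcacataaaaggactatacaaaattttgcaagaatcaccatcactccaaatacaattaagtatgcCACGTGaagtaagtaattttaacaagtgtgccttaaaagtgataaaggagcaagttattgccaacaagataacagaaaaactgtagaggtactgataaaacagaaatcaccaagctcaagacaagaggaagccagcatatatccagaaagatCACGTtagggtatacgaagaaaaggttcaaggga
The Pdk1 window holds 2 copies of GCGTG, the first beginning 78 bases before the start and the other 2 bases before it. The Pfkl window holds 1 copy, and the Vegfa window 0. Bases outside the windows were not searched, so 0 does not mean that the gene lacks a core. The Pfkm window holds 3, of which 2 overlap as the palindrome CACGTG. RefSeq lists 2 starts for Pdk1, 2 for Vegfa and 4 for Pfkm, and which start the clones used was not measured. The other Vegfa window holds 2 copies and the other Pdk1 window 0. The other Pfkm windows hold 2, 1 and 0, none of them with CACGTG. Of the 49 windows listed for 35 members, 81.6% held at least 1 core, against 64.8% of the windows of all tested genes and 43.8% of all 32851 windows in the table. CACGTG, which contains ACGTG on both strands, was in 12.2% of the members' windows, 10.8% of those of tested genes and 7.15% of all windows. Of the tested members with a window, 23 of 24 (95.8%) held a core in at least 1 window, against 71.5% of all tested genes with a window, and Tpi1 had none. Hif1a, which had almost the same signal on all arrays, held 3. The shares are descriptions, and base composition was not matched. Bnip3l, Slc2a3, Epas1 and Ndrg1 had no entry in the table.

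Among the 11 tested glycolytic enzymes, Pfkl and Pfkm had the largest mean differences. Phosphofructokinase commits sugar to glycolysis, and its subunits are named after liver (Pfkl), muscle (Pfkm) and platelets (Pfkp). The Pfkl signal was 935.3 for clone 42 and 1376.2 for clone 48, against 2326.4 for puroB and 1707.5 for puroD. The groups did not overlap, with log2 differences of -1.31 in the pair of clone 42 and -0.31 in that of clone 48 and a mean of -0.81 ± 0.33 (SE, n = 2 per group; limma adjusted p = 0.563). Without clone 42 the mean was -0.53. The Pfkm signal was 613.3 on the clone 42 array and 512.3 on that of clone 48, against 1357.6 for puroB and 651.8 for puroD. Here puroB was apart from the other clones, which lay close together, and the mean log2 difference of -0.75 ± 0.31 (limma adjusted p = 0.568) was -0.22 without puroB and -1.28 without puroD. Pfkp was too dim to test, at its brighter probe set with 72.6 for clone 42 and 129.3 for clone 48, against 93.4 for puroB and 196.1 for puroD. Its order was thus another one, with both clones of the second pair above those of the first. Within each pair the Nurr1-labelled clone was still the lower, with log2 differences of -0.36 and -0.60, and of -0.079 and -0.38 at the dimmer probe set.

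Tpi1, the triosephosphate isomerase, had signals of 4666.1 for clone 42 and 5733.0 for clone 48, against 8625.8 for puroB and 6630.9 for puroD. The controls were the higher arrays in both pairs, by log2 differences of -0.89 and -0.21 in the Nurr1-labelled clones (mean -0.55 ± 0.32; limma adjusted p = 0.841), and the mean was -0.36 without puroB. Ldhb, the lactate dehydrogenase chain that favours oxidation of lactate, gave 206.1 on the clone 42 array and 162.8 on that of clone 48, against 268.5 for puroB and 231.9 for puroD. Its pairs differed by similar amounts, -0.38 and -0.51 on the log2 scale (mean -0.45 ± 0.34; limma adjusted p = 0.896), and without clone 48 the mean was -0.28. Aldoc, the brain form of aldolase, was below the filter, at 70.3 for clone 42 and 35.6 for clone 48, against 197 for puroB and 75 for puroD, with log2 differences of -1.49 and -0.90. Its clone 48 signal lay under the floor of 40.3 that was set before logs were taken and under the highest of 15 controls for transcripts that are not spiked in on that array (39.1).

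Several bright enzymes had small differences at their brightest probe sets. Ldha, the lactate dehydrogenase chain that favours lactate production, had log2 differences of -0.33 and -0.20, Pgk1 (phosphoglycerate kinase) -0.29 and -0.20, and Pkm (pyruvate kinase) -0.18 and -0.20. At these probe sets the groups did not overlap, but the means of -0.26, -0.24 and -0.19 were each smaller than their standard error of 0.30 to 0.31. The other Pkm probe set gave 3425.9 for clone 42 and 6755.7 for clone 48, against 6113.4 for puroB and 5962.3 for puroD, with log2 differences of -0.84 and 0.18, and there the groups overlapped. Gapdh, seen through the 3 array controls along its transcript, gave 12151.3 for clone 42 and 13337.8 for clone 48, against 17150.2 for puroB and 14587.9 for puroD, with the middle control. With the 3′ control it gave 11179.6 on the clone 42 array and 12182.6 on that of clone 48, against 13203.9 for puroB and 13974.2 for puroD. With the 5′ control the values were 11953.3 for clone 42 and 9857.7 for clone 48, against 15364.0 for puroB and 14357.7 for puroD. All 3 controls were thus lower in the Nurr1-labelled clones in both pairs, by log2 differences between -0.13 and -0.54, and array controls were not tested. Pgam1 (phosphoglycerate mutase) had -0.32 and 0.040. Aldoa, the general aldolase, had -0.17 and 0.080 at its brightest probe set and 0.30 and 0.39 at the other. At that other probe set both Nurr1-labelled clones lay above both controls. The signals there were 3633.6 for clone 42 and 3436.1 for clone 48, against 2955.2 for puroB and 2629.3 for puroD.

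The 2 hexokinases, which trap glucose in the cell, had different profiles. Hk2, the inducible form, had log2 differences of -0.72 and -0.052, with signals from 925.1 in clone 42 to 1527.9 in puroB. Hk1, the constitutive form of brain, had 0.66 in the pair of clone 42 and -0.86 in that of clone 48, so that clone 42 and puroD were its high arrays. Its mean of -0.10 ± 0.36 therefore averages differences of opposite sign. Hk1 was the 1 enzyme of 11 that was higher in clone 42 than in puroB.

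Over the 11 tested glycolytic enzymes the median log2 difference between clone 42 and puroB was -0.33, and that between clone 48 and puroD was -0.20, compared with -0.060 and -0.035 over all tested probe sets. At their brightest probe sets, 8 of the 11 were lower in both pairs and 0 higher in both. Pfkl and Pfkm were 2-fold or more lower in clone 42 than in puroB, as were 4.78% of all tested probe sets, and 0 of the 11 were 2-fold or more lower in clone 48 than in puroD, against 3.72%. Control clones also differed in these enzymes, with a median of 0.21 for puroB minus puroD, compared with 0.067 over all tested probe sets.

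**Figure D2:**
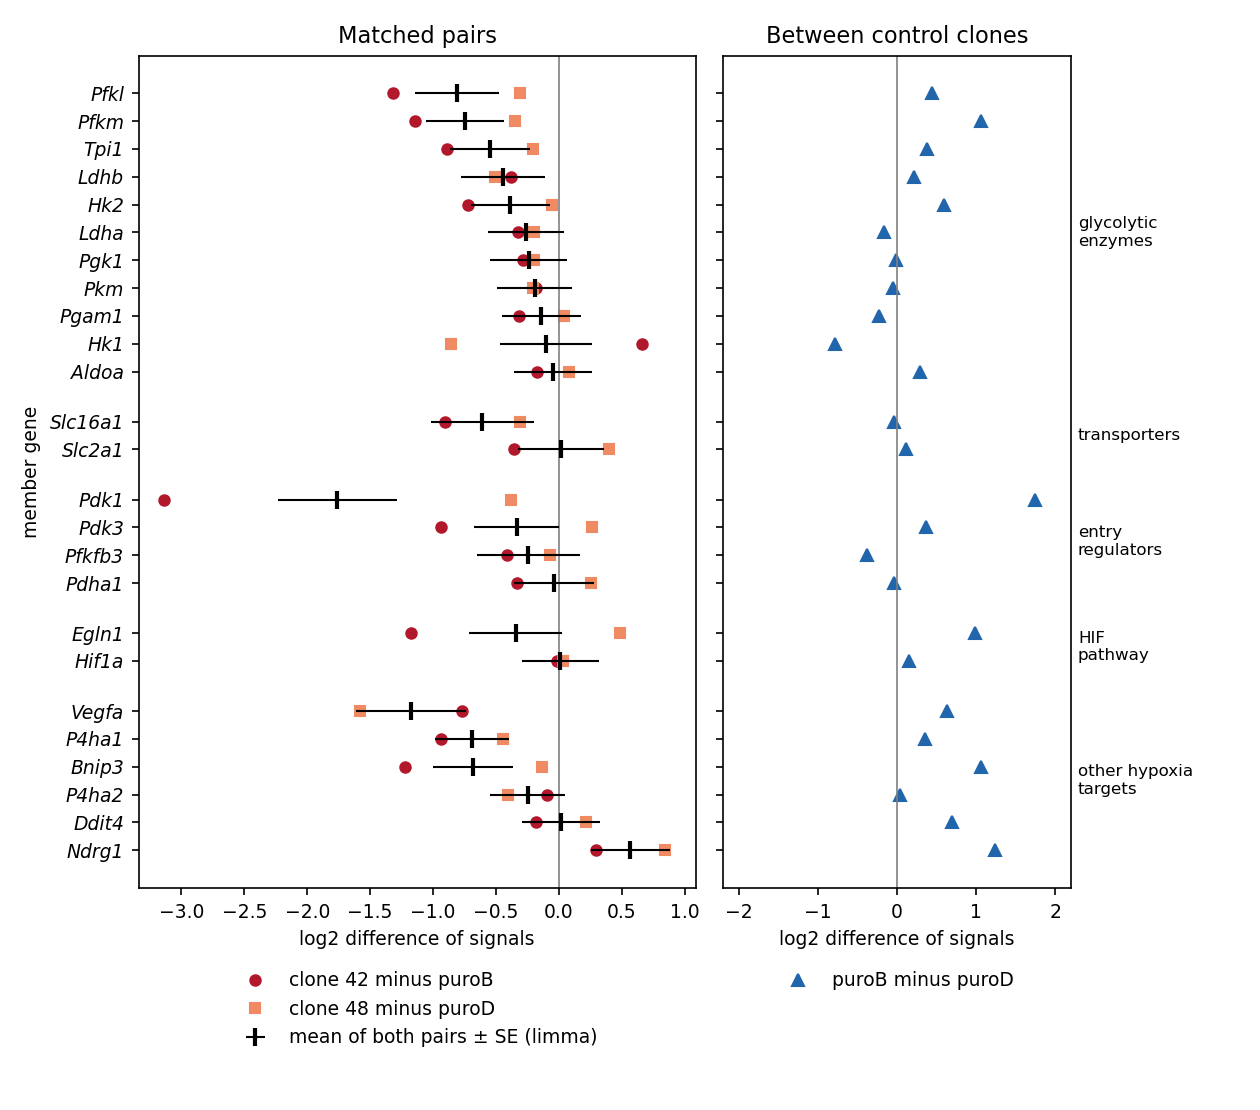
Log2 differences of the 25 tested members, with both matched pairs as points and their mean ± SE from limma (n = 2 clones per group) as a vertical tick with a bar at left, and puroB minus puroD at right. Most points of clone 42 minus puroB lie left of 0, with Pdk1 at -3.14, and Ndrg1 is the only gene with both pairs right of 0.

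The 2 tested transporters had dim probe sets. Slc16a1, the monocarboxylate transporter that carries lactate, had signals of 93.7 for clone 42 and 145.4 for clone 48, against 175.6 for puroB and 180.5 for puroD. The controls were alike and both Nurr1-labelled clones lay below them, with log2 differences of -0.91 and -0.31 (mean -0.61 ± 0.41; limma adjusted p = 0.870). The mean was -0.29 without clone 42 and -0.93 without clone 48. Slc2a1, the widespread glucose transporter, had -0.36 and 0.40, with signals from 180.4 in clone 42 to 281.7 in clone 48. Slc2a3, the neuronal glucose transporter, lay below the filter with all signals under 80 at both probe sets. Over the 2 tested transporters the medians were -0.63 (clone 42 minus puroB) and 0.042 (clone 48 minus puroD).

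Of the HIF pathway, Hif1a itself was nearly level. Its signal lay between 5155.5 and 5752.6 on all arrays at the brighter probe set, and its mean log2 difference was 0.011 ± 0.31 (95% interval -0.65 to 0.67). The other probe set gave 0.023. Both carry the suffix with which the manufacturer marks probes that can also match related transcripts. Among the other tested members, both Aldoa probe sets and the second ones of Pkm and P4ha2 carry that suffix too. Egln1, the main oxygen-sensing prolyl hydroxylase and itself a HIF target, gave 580.7 on the clone 42 array and 931.5 on that of clone 48, against 1312.5 for puroB and 664.1 for puroD. The groups overlapped, since clone 48 was above puroD while clone 42 was below puroB. Log2 differences were -1.18 and 0.49 (mean -0.34 ± 0.37; limma adjusted p = 0.960), and without puroB the mean turned to 0.15. The control clones differed 1.98-fold, in puroB over puroD. Epas1, Arnt and Vhl were below the filter. Epas1 gave 50.8 for clone 42 and 47.6 for clone 48, against 99.8 for puroB and 47.4 for puroD. The brighter Arnt probe set gave 143.6 for clone 42 and 103.1 for clone 48, against 198.9 for puroB and 125.8 for puroD. Vhl gave 132.4 on the clone 42 array and 49.7 on that of clone 48, against 109.0 for puroB and 58.8 for puroD. Arnt was thus the higher in the control of each pair, while Vhl was not.

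Among the other hypoxia targets, Vegfa, the main growth factor of blood vessels, had signals of 142.8 for clone 42 and 52.4 for clone 48, against 244.1 for puroB and 157.0 for puroD. It was the only tested member that was 2-fold or more lower in clone 48 than in puroD, with a log2 difference of -1.58, and its log2 difference in clone 42 against puroB was -0.77. The mean log2 difference was -1.18 ± 0.44 (SE, n = 2 per group; limma adjusted p = 0.466), -0.46 without clone 48 and -1.90 without clone 42. With the floor raised to the median of all signals it was -0.43.

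Bnip3, a receptor for the removal of mitochondria, gave 395.1 for clone 42 and 401.3 for clone 48, against 922.9 for puroB and 441.5 for puroD. Only puroB stood apart, at 2.34-fold over clone 42 and 2.09-fold over puroD. The mean log2 difference was -0.68 ± 0.32 (limma adjusted p = 0.678), with -0.15 without puroB and -1.21 without puroD. P4ha1, an alpha subunit of the prolyl hydroxylase that stabilises collagen, gave 460.8 on the clone 42 array and 505.4 on that of clone 48, against 881.9 for puroB and 689.7 for puroD. Here each group held together, with log2 differences of -0.94 and -0.45 (mean -0.69 ± 0.29; limma adjusted p = 0.578). The other alpha subunit, P4ha2, had -0.096 and -0.40 at its brightest probe set and 0.040 and -0.26 at the other.

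Ndrg1, a stress-responsive gene often used as a readout of hypoxia, ran the other way. Its signal was 2772.9 for clone 42 and 1707.0 for clone 48, against 2258.3 for puroB and 953.3 for puroD. Each Nurr1-labelled clone was above its matched control, but the groups overlapped because clone 48 lay below puroB. Log2 differences were 0.30 and 0.84 (mean 0.57 ± 0.32; limma adjusted p = 0.815), and a second probe set gave 0.33 and 0.81. The mean was -0.054 without puroD, 0.22 without clone 42, 0.92 without clone 48 and 1.19 without puroB. Control clones differed more, 2.37-fold in puroB over puroD. Ddit4, an inhibitor of the growth kinase mTOR, had -0.18 and 0.22, with a log2 difference of 0.70 in puroB over puroD. Adm (adrenomedullin) and Mif (macrophage migration inhibitory factor) stayed under 50 on all arrays with every probe set.

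Glycolytic enzymes and other hypoxia targets were then set side by side. The 6 tested targets had medians of -0.48 between clone 42 and puroB and -0.27 between clone 48 and puroD on the log2 scale, compared with -0.33 and -0.20 for the 11 enzymes. Of the 6, 4 were lower in both pairs (Vegfa, Bnip3, P4ha1 and P4ha2) and Ndrg1 was higher in both. Averaged over the pairs the medians were -0.26 for the enzymes and -0.46 for the targets, so that the enzymes lay 0.20 above the targets. This gap was not stable. It was -0.14 without clone 48, -0.061 without puroB, 0.37 without puroD, -0.24 with no filter and 0.035 when Pdk1, Pfkfb3, Egln1 and Slc2a1 were counted among the targets. The 6 targets include Vegfa, whose difference is partly fixed by the filter. With the filter on all 4 arrays, which leaves Vegfa out, the targets' median was -0.25 and the gap was -0.013. Between control clones the targets had the wider difference, with a median of 0.67 for puroB minus puroD over the 6 targets and 0.21 over the 11 enzymes. All 6 targets were higher in puroB than in puroD, as were 6 of the 11 enzymes and 56.1% of all tested probe sets.

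**Figure D3:**
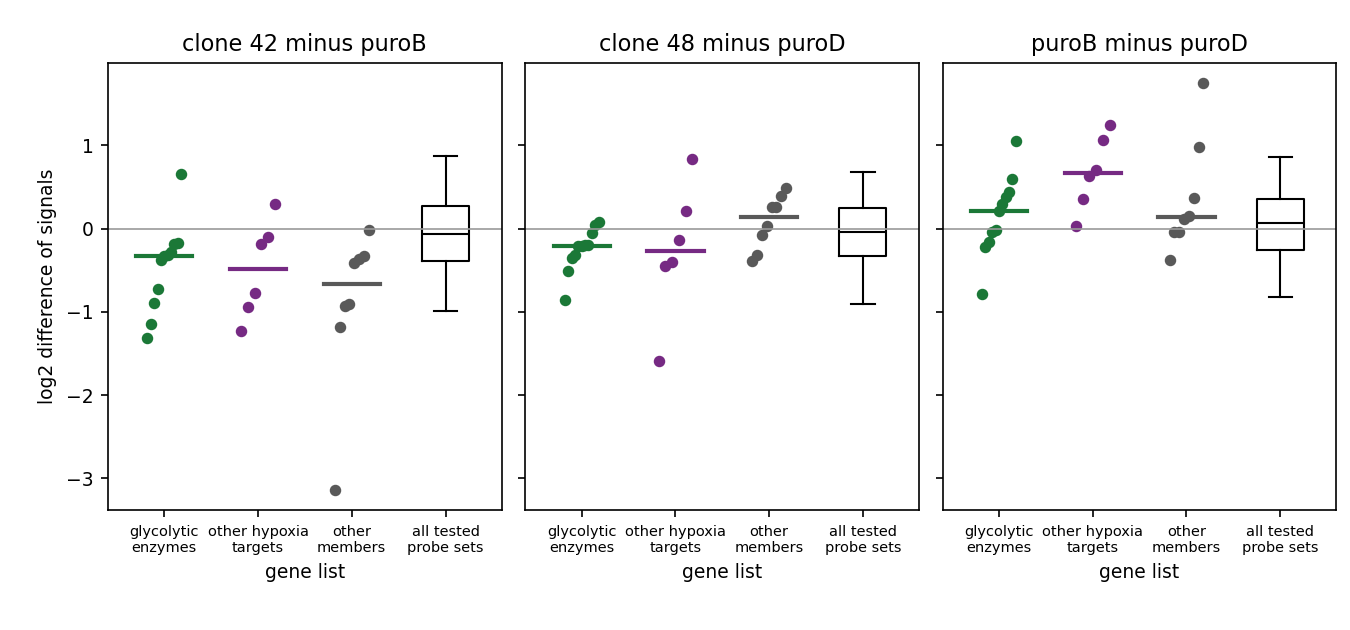
Log2 differences of the tested members in 3 comparisons, with 1 point per gene and a line at each list's median, beside all 6419 tested probe sets (box from the 25th to the 75th percentile, line at the median, whiskers at the 5th and 95th). Enzymes and targets lie mostly below 0 in both matched pairs, and all 6 targets lie above 0 in puroB minus puroD.

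Differences were wider between clone 42 and puroB than between clone 48 and puroD, with 1 array on each side and so no test. Of the 25 tested members, 23 were lower in clone 42 than in puroB, as were 55.0% of all tested probe sets, and 16 were lower in clone 48 than in puroD, as were 53.0%. In clone 42, 5 members were 2-fold or more lower than in puroB (Pdk1, Pfkl, Bnip3, Egln1 and Pfkm), against 4.78% of all tested probe sets, and 0 were 2-fold or more higher, against 3.57%. In clone 48, 1 (Vegfa, whose difference is partly fixed by the filter) was 2-fold or more lower than in puroD, against 3.72%. In the same pair 0 were 2-fold or more higher, against 1.67%. Clone 42 was the lowest of the 4 arrays for 16 of the 25 (28.6% of all tested probe sets) and puroB the highest for 15 (29.2%). Without reference to Nurr1, 4 members were 2-fold or more higher in puroB than in puroD (Pdk1, Pfkm, Bnip3 and Ndrg1), against 3.02% of all tested probe sets, and 0 were 2-fold or more lower, against 3.04%. In 14 of the 25 the control clones differed by more than the mean difference between Nurr1-labelled and control clones; this was so for 59.3% of all tested probe sets. Because puroB enters both the first pair and the comparison of control clones, these values are not independent of each other. Proliferation genes were also lowest in clone 42. Their summed signal over 17 genes was 18797 for clone 42 and 39781 for clone 48, against 35303 for puroB and 37629 for puroD, and in clone 42 15 of the 16 tested lay below puroB, with a median log2 difference of -1.18, and 0.025 in the other pair. The actin control's 3′ to 5′ ratio, which grows as RNA breaks down, was highest in clone 48 (2.41) and lowest in puroB (1.51). The part of either in the members' differences was not tested. In these bulk samples fewer cells that express a gene and less RNA per cell cannot be told apart.

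The counts depend on how arrays are scaled. When each array was scaled to the same median, the median log2 difference of all tested probe sets, averaged over the pairs, moved to 0.13 in place of -0.038, and 8 of 26 tested members were lower in both pairs, against 16.3% of all tested probe sets under that scaling. Relative to the median of all probe sets in each pair, 16 of those 26 lay lower in both pairs, and 15 of 25 did so under the main scaling. The share of all tested probe sets that lay lower in this sense was not computed, so these counts have no background beside them. The members' median lay 0.26 below that of all probe sets under median scaling, 0.30 below it under quantile normalization and 0.22 below it under the main scaling.

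Further genes of these pathways were taken from lists that are wider than the members. Of 13 tested genes of glycolysis and pyruvate metabolism beyond the members, 0 passed the test in limma in either direction and 1 had an unadjusted p under 0.05. They were split, with 4 of them lower in both pairs, 4 higher in both and a median log2 difference, averaged over the pairs, of 0.053. Of all tested probe sets 7.38% had an unadjusted p under 0.05 in limma, 29.7% were lower in both pairs and 21.7% higher in both. The largest differences were those of both glycerol-3-phosphate dehydrogenases, which move reducing equivalents between cytosol and mitochondria. Gpd2, the mitochondrial enzyme, had signals of 110.4 for clone 42 and 166.0 for clone 48, against 269.0 for puroB and 202.7 for puroD (log2 differences -1.28 and -0.29; limma adjusted p = 0.717). Gpd1, the cytosolic enzyme, had 1090.9 for clone 42 and 605.5 for clone 48, against 2055.1 for puroB and 866.7 for puroD (-0.91 and -0.52; limma adjusted p = 0.578). Of 8 tested glycogen genes 0 passed while 2 lay lower in both pairs and 1 higher, with Phka1, a subunit of phosphorylase kinase, at -0.58 and -0.61 and Pgm2, a phosphoglucomutase, at -0.46 and -0.047. Of 8 tested HIF regulators 0 passed, with 0 at an unadjusted p under 0.05. Elob, a subunit of the Vhl ubiquitin ligase, had 0.60 and 0.22, and its scaffold Cul2 had -0.060 and -0.15.

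Of 24 further hypoxia targets 0 passed the test and 6 had an unadjusted p under 0.05 in limma, against 7.38% of all tested probe sets. Of these 6, Ak4, Igfbp3, Kdm3a, Tgfb3 and Angptl4 were lower in both pairs and Stc2 was higher in both. Among the 24, 11 had the lower and 3 the higher value in both pairs, against 29.7% and 21.7% of all tested probe sets. The median log2 difference of the list, averaged over the pairs, was -0.092. Ak4, a mitochondrial adenylate kinase, had the largest difference, with signals of 99.7 on the clone 42 array and 304.0 on that of clone 48, against 622.7 for puroB and 454.6 for puroD. Its log2 differences were -2.64 and -0.58, and its mean was -1.61 ± 0.41 (SE, n = 2 per group; limma adjusted p = 0.153). The secreted glycoprotein Stc2 had nearly the same difference in both pairs in the opposite direction, with 713.5 for clone 42 and 629.0 for clone 48, against 319.5 for puroB and 280.6 for puroD (1.16 in each pair; mean 1.16 ± 0.29; limma adjusted p = 0.144).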

How the data were processed

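Total RNA of 4 clones was labelled with biotin and hybridised to Affymetrix arrays, 1 array per clone, per the labels' protocols. Each probe set has 1 deposited intensity per array, on a linear scale. MAS5 is named in the submitters' processing notes; version, scaling target and presence calls were not given in the sources used here. Trimmed means (2% from each end) of the deposited arrays lay between 500.4 and 500.5.

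Arrays were brought to a trimmed mean of 500. A floor of 40.27, the 30th percentile over all arrays, replaced lower signals, and log2 was taken. Tested probe sets exceeded the median of all values (145.05) on at least 2 of 4 arrays, without 66 array controls. Groups were compared in limma 3.58.1 (R 4.3.3) with the matched pair as a block, moderated variances that follow the intensity, and Benjamini-Hochberg adjustment over 6419 probe sets, threshold 0.05. With 1 residual degree of freedom, most of the spread comes from the prior. Pairs are those of the labels; the arrays of a pair deviated together from the means of their groups (r = 0.19 across probe sets, which are not independent). Single pairs of arrays have no test. Standard errors, intervals and p-values therefore rest mostly on the spread of other probe sets and only in part on that between these clones. For Pdk1 both pair differences lay outside the 95% interval.

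Symbols came from the platform annotation, checked through Entrez identifiers against RefSeq (GRCm38.p6); probe sets with several symbols named no gene, which left out 3 shared by members. A gene was represented by its brightest tested probe set. Signals of all arrays are given for members with an adjusted p under 0.05, a mean log2 difference of at least 0.4, or 1 in either pair, and for the Gapdh controls. Signals of Pfkfb3 and of the members below the filter were added after their values were seen. The members, gene lists and tests were chosen with earlier results of these data known. From each wider list the 2 genes of the largest difference with 1 direction in both pairs are named. Promoters came from RefSeq. Alternatives were other scalings, floors and filters, no block, no trend, and each array left out.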

Additional observations from a re-analysis of the deposited data

How the results depend on the processing

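Under all alternatives run, 0 members passed in limma; between 1 and 6 had an unadjusted p under 0.05, against 5 as reported. The count over all probe sets, 7, was 0 with quantile normalization (375 at an unadjusted p under 0.05), 51 with median scaling, 4 with no floor, 17 with the floor at the median, 0 with no filter (560) and 49 with the filter on all 4 arrays. With no replicate block, that is without the matched pair in the fit, it was 0 (287), the members' count stayed 0 (3) and log2 differences could not move. Leaving out 1 array gave 0 to 51; these fits had no block, and a lone array was assumed to vary like the other group. With median scaling 8 of 26 members were lower in both pairs (16.3% of all tested probe sets). The enzymes' median was -0.16 with median scaling, -0.39 with no filter and -0.41 to -0.23 without 1 array. That of the other targets was -0.30 with median scaling, -0.14 with no filter, -0.25 with the filter on all 4 arrays and -0.60 to -0.19 without 1 array. Enzymes minus targets gave 0.14 with quantile normalization, 0.14 with median scaling, 0.078 with the floor at the median, -0.24 with no filter, -0.013 with the filter on all 4 arrays, 0.035 with targets added and -0.14 to 0.37 without 1 array. The transporters' median was 0.017 with no filter, 0.017 when all 4 arrays had to pass the filter, and -0.62 to 0.023 without 1 array. That of the entry regulators was -0.68 to 0.097 without 1 array, and that of the HIF genes 0.0028 with median scaling and -0.45 to 0.12 without 1 array. Of the values of single members under the alternatives, 21 changed sign and 275 did not, and the filter on all 4 arrays leaves none for Vegfa, Pdk1, Slc16a1 and Pfkfb3. Changing the filter, the block or the trend left the value of a single member as it was. Many of the 275 were thus fixed in advance, and the count does not measure stability. Leaving out an array leaves no count lower in both pairs. With median scaling the values that changed sign were Hk1 at 0.069, Aldoa at 0.12, Pgam1 at 0.029 and Pdha1 at 0.13, and with quantile normalization Hif1a at -0.089 and Ddit4 at -0.020. Without 1 array the ranges were -0.49 to 0.29 for Hk1, -0.19 to 0.10 for Aldoa, -0.43 to 0.15 for Pgam1, -0.30 to 0.34 for Slc2a1, -0.60 to 0.12 for Pfkfb3, -0.75 to 0.075 for Pdk3, -0.35 to 0.28 for Pdha1, -0.068 to 0.091 for Hif1a, -0.84 to 0.15 for Egln1, -0.33 to 0.37 for Ddit4 and -0.054 to 1.19 for Ndrg1. Pdk1 ran from -2.63 to -0.89, with adjusted p of 0.056 without clone 48 and 0.84 without the block. The cause of these shifts was not tested. Signal over background limits Vegfa, Slc16a1, Pfkfb3 and the members below the filter.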
